A study of Mus musculus with 36 samples.

Results

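Kruppel-like factors (KLFs) are transcription factors that bind GC-rich and CACCC sequences through zinc fingers at the end of the protein, and 10 of them were examined here across 4 primary mouse cell types and 3 treatments. The genes were Klf2, Klf3, Klf4, Klf5, Klf6, Klf9, Klf10, Klf11, Klf13 and Klf15, taken as the rows of the gene-level table whose Ensembl ID carries these symbols, which gave 10 of 54347 genes. For adipocytes, stromal vascular cells of the inguinal fat of C57Bl/6 male mice were induced with a mix that holds isobutylmethylxanthine, dexamethasone, insulin and rosiglitazone, macrophages came from bone marrow, myotubes from hindlimb myoblasts, and hepatocytes from perfused liver. Each cell type received PBS as control, 5 mM β-hydroxybutyrate (βOHB) or 5 mM butyrate for 6 h, which gave 12 groups of 3 libraries. The labels name no genetic change in any group. The fat of several mice was pooled for the adipocytes, which after the mix were kept with insulin and then in medium without it. Hepatocytes (from C57BL/6NHsd males) were plated with dexamethasone and then rested without it before treatment. Adipocytes and macrophages were treated in the same medium, and myotubes and hepatocytes each in another. Isolation and culture differed with cell type, so cell type and preparation cannot be told apart. For myotubes and hepatocytes the treatment medium goes with them too, and for hepatocytes also the named mouse strain.

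The family is usually split by partner proteins. KLF2, KLF4, KLF5 and KLF6 mostly activate genes with the acetyltransferases p300, CBP and PCAF. KLF3 represses through the corepressor CtBP, and KLF9, KLF10, KLF11 and KLF13 repress through Sin3A. KLF15 stands outside these groups and is known for amino acid and glucose metabolism in liver, muscle and fat. Several KLFs act during fat cell differentiation, and KLF2 and KLF4 are also known for the resting state of endothelial cells and for macrophage activation. Butyrate, made by gut bacteria, blocks histone deacetylases, and βOHB is a ketone body that carries a hydroxyl group where butyrate has none.

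The values are CPM, the counts of a gene scaled to a fixed library total, computed from estimated counts with TMM scaling, and library totals ran from 18366289 to 23221473 counts. A gene was tested when it had more than 1 CPM in at least 6 of the 36 libraries, which kept 15340 genes and all 10 KLFs. A difference is named called, raised or lowered where the Benjamini-Hochberg adjusted p of edgeR's quasi-likelihood test over all 15340 genes was under 0.05. The SE and the 95% interval are those of the fitted log2 fold change. RNA from fewer cells of a kind and less RNA per cell cannot be told apart in such libraries. The 6 markers of the labelled cell type were each detected in every library. Their sum was lower with butyrate than in controls in adipocytes (7371 to 8986 against 9567 to 10421 CPM, 4 of 6 lowered), macrophages (10516 to 11061 against 16964 to 17131 CPM, 3 of 6 lowered) and myotubes (11545 to 16164 against 18993 to 23335 CPM, 4 of 6 lowered) and was 45337 to 48100 against 40651 to 42464 CPM in hepatocytes (1 of 6 lowered).

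Markers of other cell types were counted in some libraries. The 6 hepatocyte markers (Alb, Ttr, Apoa1, Cps1, Hnf4a and Fgb) summed to 33.8, 622 and 144 CPM in butyrate replicates 1, 2 and 3 of the myotubes and to 25.8 CPM in βOHB replicate 3, against 0 to 0.176 CPM in the myotube controls. Macrophage markers in myotubes ran from 105 to 271 CPM in controls, from 42.2 to 104 CPM with βOHB and from 15.5 to 68.5 CPM with butyrate. Adipocyte libraries of all treatments held 5335 to 9272 CPM of 4 fibroblast markers, 247 to 334 CPM of 6 macrophage markers and 117 to 241 CPM of 4 endothelial markers. The fibroblast markers also summed to 967 to 1704 CPM in the macrophage libraries and to 1117 to 1658 CPM in the myotube libraries. Hepatocyte libraries held 77.9 to 120 CPM of macrophage markers, and with butyrate their endothelial markers went from 64.6 to 72.1 CPM in controls to 19.7 to 23.3 CPM (4 of 4 lowered) and their fibroblast markers from 19.8 to 24.1 CPM to 15.2 to 17.4 CPM (2 of 4 lowered). Adipocyte markers were higher with butyrate in hepatocytes, at 58.0 to 60.2 against 17.2 to 20.0 CPM (3 of 6 raised), and in myotubes, at 10.9 to 12.1 against 4.84 to 5.72 CPM (2 of 6 raised). Myotube markers were higher with butyrate in macrophages, at 18.3 to 51.8 against 5.93 to 12.2 CPM (6 of 6 raised), and in hepatocytes, at 41.7 to 46.3 against 23.8 to 25.0 CPM (1 of 6 raised).

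Butyrate changed most of these genes in every cell type, and the direction depended on the gene. For Klf5 and Klf9 it also depended on the cell type, as it did for Klf13 by a call lost without the low-count filter. Of the 10 KLFs, 7 were called in adipocytes (3 raised and 4 lowered, where 61.0% of all tested genes were called, 30.7% raised and 30.3% lowered), 9 in macrophages (5 raised and 4 lowered, background 65.0%, with 31.9% and 33.2%), 8 in myotubes (3 raised and 5 lowered, background 66.5%, with 33.1% and 33.4%) and 7 in hepatocytes (2 raised and 5 lowered, background 63.5%, with 31.0% and 32.4%). With so many genes called in the whole table, these shares are near the background. The median absolute log2 change of the 10 genes was 0.43 in adipocytes, 0.55 in macrophages, 0.65 in myotubes and 0.84 in hepatocytes, beside 0.42, 0.49, 0.45 and 0.54 over all tested genes. Under βOHB 0 KLFs were called in each cell type, where 0.00652% of tested genes were called in adipocytes, 0% in macrophages, 2.91% in myotubes and 0.00652% in hepatocytes.

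**Figure D1:**
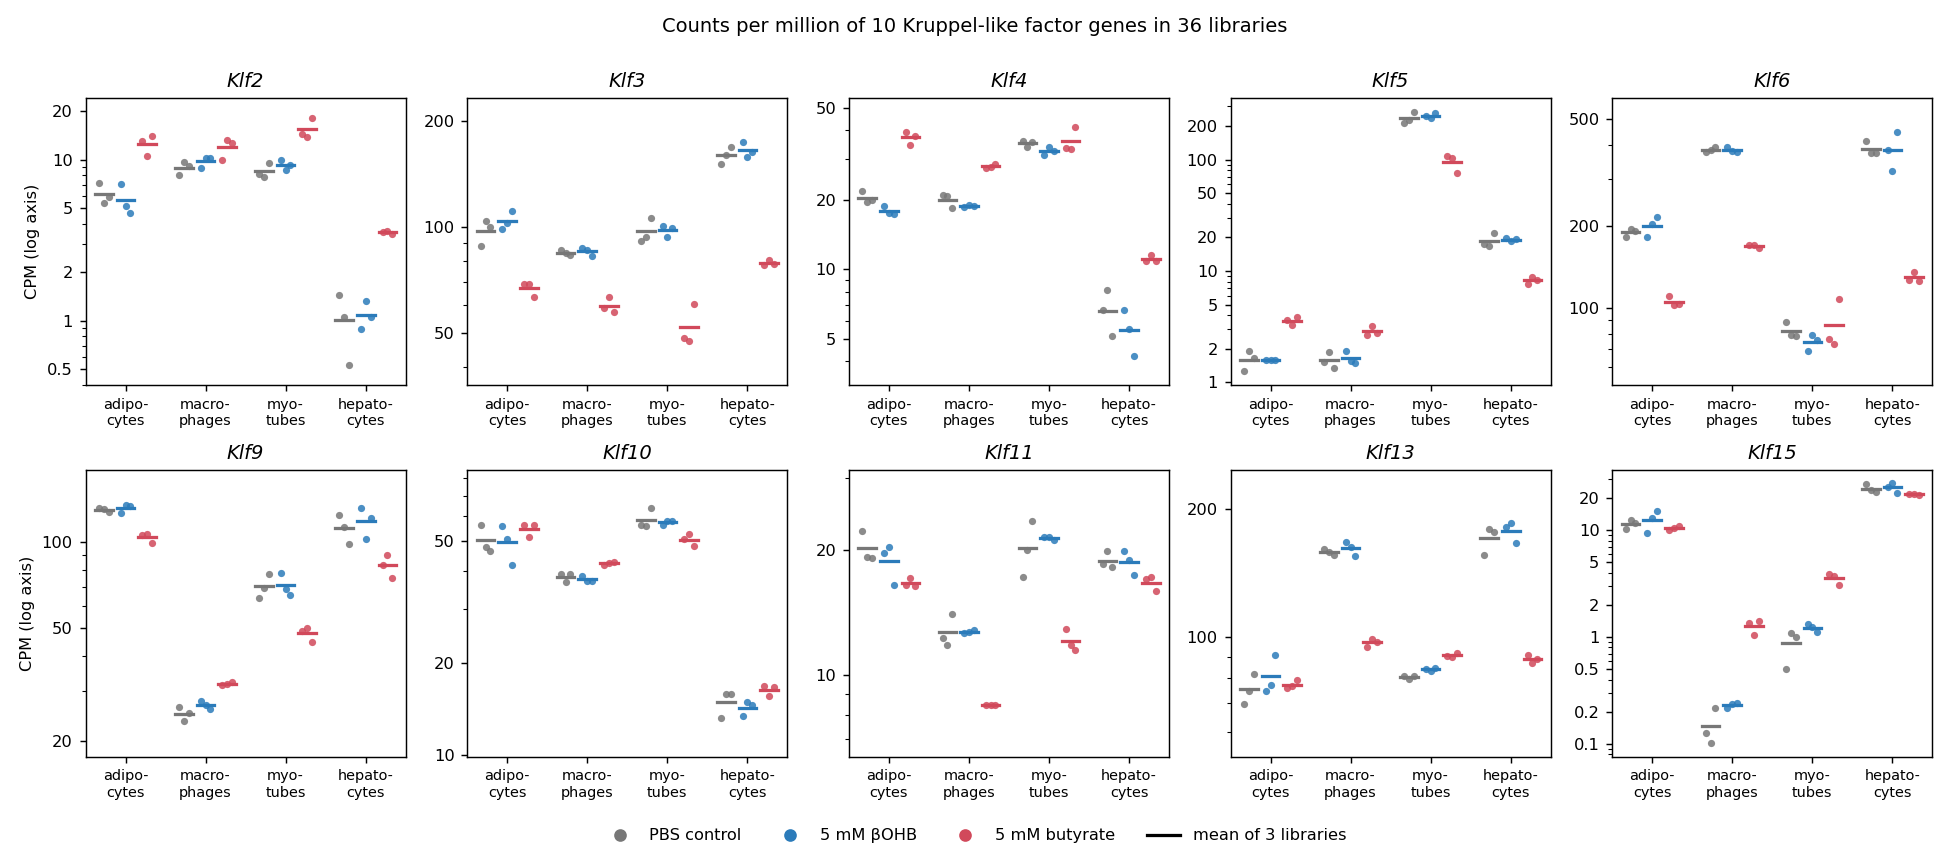
CPM (log axis) of the 10 Kruppel-like factor genes in each of the 36 libraries, by cell type, with 1 point per library and a line at the mean of 3 libraries. The butyrate points of Klf2 lie above the controls in all 4 cell types and those of Klf3 below, the βOHB points lie among or near the controls, and Klf15 in macrophages starts from 0.101 to 0.216 CPM.

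Klf2 and Klf3 were the members moved the same way in all 4 cell types, so the sequence before their start sites is shown, together with that of Klf15, whose level differed most between cell types along with Klf5. The bases are from RefSeq promoter windows on GRCm38.p6, trimmed to the part that lies before the start of the GENCODE gene, and read 5′ to 3′ on the strand of the gene. Capitals mark the motifs searched on both strands, namely the GC box with the letters GGGCGG, the CACCC box, the CCAAT box, the TATA box with the letters TATAAA and the E-box with the letters CACGTG, with overlapping matches all marked.
Klf2, chr8:72318812-72319032, plus strand: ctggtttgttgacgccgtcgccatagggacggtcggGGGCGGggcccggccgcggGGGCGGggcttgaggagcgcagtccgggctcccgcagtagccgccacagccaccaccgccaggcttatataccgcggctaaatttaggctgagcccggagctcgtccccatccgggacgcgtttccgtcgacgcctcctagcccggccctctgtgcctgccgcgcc
Klf3, chr5:64803271-64803387, plus strand: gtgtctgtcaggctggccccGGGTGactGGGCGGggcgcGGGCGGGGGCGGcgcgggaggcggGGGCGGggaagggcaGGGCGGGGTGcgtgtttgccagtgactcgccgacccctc
Klf15, chr6:90462326-90462575, plus strand: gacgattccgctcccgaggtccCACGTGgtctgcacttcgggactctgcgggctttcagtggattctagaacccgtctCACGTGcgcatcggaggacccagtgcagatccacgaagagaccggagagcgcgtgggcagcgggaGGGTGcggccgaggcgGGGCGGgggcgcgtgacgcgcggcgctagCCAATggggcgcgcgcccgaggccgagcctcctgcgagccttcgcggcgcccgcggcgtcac
The 117 bases shown for Klf3 hold 5 GC boxes and 2 CACCC boxes, which in part share bases. The 221 bases of Klf2 hold 2 GC boxes and no other match, and the 250 bases of Klf15 hold 2 E-boxes, 1 GC box, 1 CACCC box and 1 CCAAT box. The window was found for 8 of the 10 genes, and Klf5 and Klf10 had none in the table. Over the whole 250 bases before the RefSeq start, a GC box was present in 7 of 8 members (32.7% of 32851 promoters), a CACCC box in 5 (52.0%), a CCAAT box in 5 (33.8%), an E-box in 4 (6.02%) and a TATA box in 0 (12.4%). The 8 windows were 59.6 to 78.4% GC against a median of 52.4% over all promoter windows, so the shares are not set against promoters of like base composition. A match describes these letters and does not show a bound site.

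The activator group opened with Klf2 (ENSMUSG00000055148, chr8:72319033-72321656), a factor known for keeping endothelial cells and lymphocytes quiescent. In adipocytes the controls held 7.15, 5.39 and 5.91 CPM and the butyrate libraries 13.1, 10.6 and 14.0 CPM, a 2.04-fold rise (log2 1.03, SE 0.15, adjusted p = 9.9e-07 in edgeR). Hepatocytes had the least Klf2, with 1.44, 1.05 and 0.532 CPM in controls (23, 17 and 9 counts) and 3.55, 3.62 and 3.48 CPM with butyrate, which was the steepest rise of the 4 (log2 1.82, SE 0.26). All butyrate libraries lay above all controls in both. In myotubes the level went from 8.21, 7.79 and 9.59 CPM to 14.4, 13.8 and 18.1 CPM (log2 0.85, SE 0.15). The macrophage rise was the smallest, from 8.01, 9.67 and 9.13 CPM to 9.95, 13.3 and 12.8 CPM (log2 0.43, SE 0.15, adjusted p = 0.0123 in edgeR). That call was lost without macrophage control replicate 1 (log2 0.36, adjusted p = 0.0689) or butyrate replicate 2 (log2 0.37, adjusted p = 0.0518), and with library totals in place of TMM the change was 0.66. Being raised in all 4 cell types applied to 12.5% of tested genes and, of the 10 KLFs, to Klf2. The endothelial markers of the adipocyte libraries summed to 176 to 202 CPM in controls and to 117 to 134 CPM with butyrate, lower in each butyrate library than in each control. In hepatocytes, too, these markers were lower with butyrate, at 19.7 to 23.3 CPM against 64.6 to 72.1 CPM, and their part in the Klf2 values was not tested.

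Klf4 (ENSMUSG00000003032, chr4:55527143-55532466), one of the factors used to reprogram cells to pluripotency, was raised in 3 cell types and not in myotubes. Adipocyte controls held 21.8, 19.5 and 19.9 CPM and butyrate libraries 39.3, 34.5 and 37.9 CPM, which did not overlap (log2 0.87, SE 0.10). Macrophages went from 20.9, 20.7 and 18.5 CPM to 27.6, 27.8 and 28.7 CPM (log2 0.49, SE 0.10). Hepatocytes went from 6.65, 8.12 and 5.14 CPM to 10.9, 11.6 and 10.9 CPM (log2 0.75, SE 0.13). Myotubes had the highest control level, 35.9, 33.7 and 35.6 CPM, and the butyrate libraries at 33.4, 33.2 and 41.3 CPM overlapped it (log2 0.04, 95% interval -0.15 to 0.22, adjusted p = 0.756 in edgeR). The sign of that myotube value turned without butyrate replicate 3 (-0.07), and with library totals in place of TMM the value was 0.17 (adjusted p = 0.11 in edgeR). Klf2 and Klf4 thus both rose in adipocytes, macrophages and hepatocytes.

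Klf5 (ENSMUSG00000005148, chr14:99298691-99315036), a factor known for growth of epithelial and smooth muscle cells and for early fat cell differentiation, moved in opposite directions. It was raised where it was scarce and lowered where it was abundant. Adipocyte controls held 1.26, 1.90 and 1.65 CPM (29, 44 and 39 counts) and butyrate libraries 3.60, 3.26 and 3.90 CPM, a 2.23-fold rise (SE 0.20 on the log2 scale). Macrophages rose from 1.53, 1.86 and 1.34 CPM to 2.69, 3.24 and 2.75 CPM (log2 0.89, SE 0.21). Myotube markers rose in the same macrophage libraries, from 5.93 to 12.2 CPM in controls to 18.3, 21.8 and 51.8 CPM with butyrate (6 of 6 raised). At the ratio of Klf5 to these markers in myotubes, they correspond to 0.121, 0.144 and 0.343 CPM of Klf5 in butyrate replicates 1, 2 and 3. In myotubes the controls held 215, 226 and 267 CPM and the butyrate libraries 108, 103 and 76.1 CPM, 2.47-fold lower (log2 -1.30, SE 0.09). The myotube markers were also lower in these libraries, at 16164, 15677 and 11545 CPM in butyrate replicates 1, 2 and 3 against 18993 to 23335 CPM in controls (4 of 6 lowered), and replicate 3 was the lowest for both. Their part in the fall of Klf5 was not tested. Hepatocytes fell from 17.6, 16.8 and 21.8 CPM to 7.68, 8.92 and 8.35 CPM (log2 -1.17, SE 0.13). In each cell type the butyrate libraries lay wholly on their side of the controls. Calls in opposite directions in different cell types were found for 19.3% of tested genes and for 3 of the 10 KLFs, Klf5, Klf9 and Klf13. For Klf13 this rests on the myotube call, which was lost with no filter on low counts (log2 0.11, adjusted p = 0.351), and 2 of 10 were then left.

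Klf6 (ENSMUSG00000000078, chr13:5861482-5870394), an early injury-response factor of stellate cells and macrophages, had the highest level per kilobase of exon in 3 of the 4 control groups. Hepatocyte controls held 415, 374 and 373 CPM and butyrate libraries 127, 136 and 126 CPM, 2.99-fold lower (log2 -1.58, SE 0.10, adjusted p = 3.27e-14 in edgeR). Macrophages fell from 378, 384 and 393 CPM to 170, 171 and 166 CPM (log2 -1.19, SE 0.10). Adipocytes fell from 183, 195 and 192 CPM to 110, 102 and 103 CPM (log2 -0.85, SE 0.10). In each of these 3 cell types the butyrate libraries lay below all controls. Endothelial markers in hepatocytes and the macrophage markers in macrophages were also lower with butyrate. In adipocytes the adipocyte markers (7371 to 8986 against 9567 to 10421 CPM), the endothelial markers (117 to 134 against 176 to 202 CPM) and the macrophage markers (247 to 272 against 282 to 334 CPM, 1 of 6 lowered) were lower as well, and the part of any of these in the fall of Klf6 was not tested. Myotubes, which had the lowest control level at 88.2, 79.4 and 78.2 CPM, showed 76.7, 73.6 and 108 CPM with butyrate (log2 0.07, 95% interval -0.13 to 0.28, adjusted p = 0.553 in edgeR). Butyrate replicate 3 stood above the other libraries there, and without it the value was -0.12. With library totals in place of TMM it was 0.21 (adjusted p = 0.11 in edgeR).

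**Figure D2:**
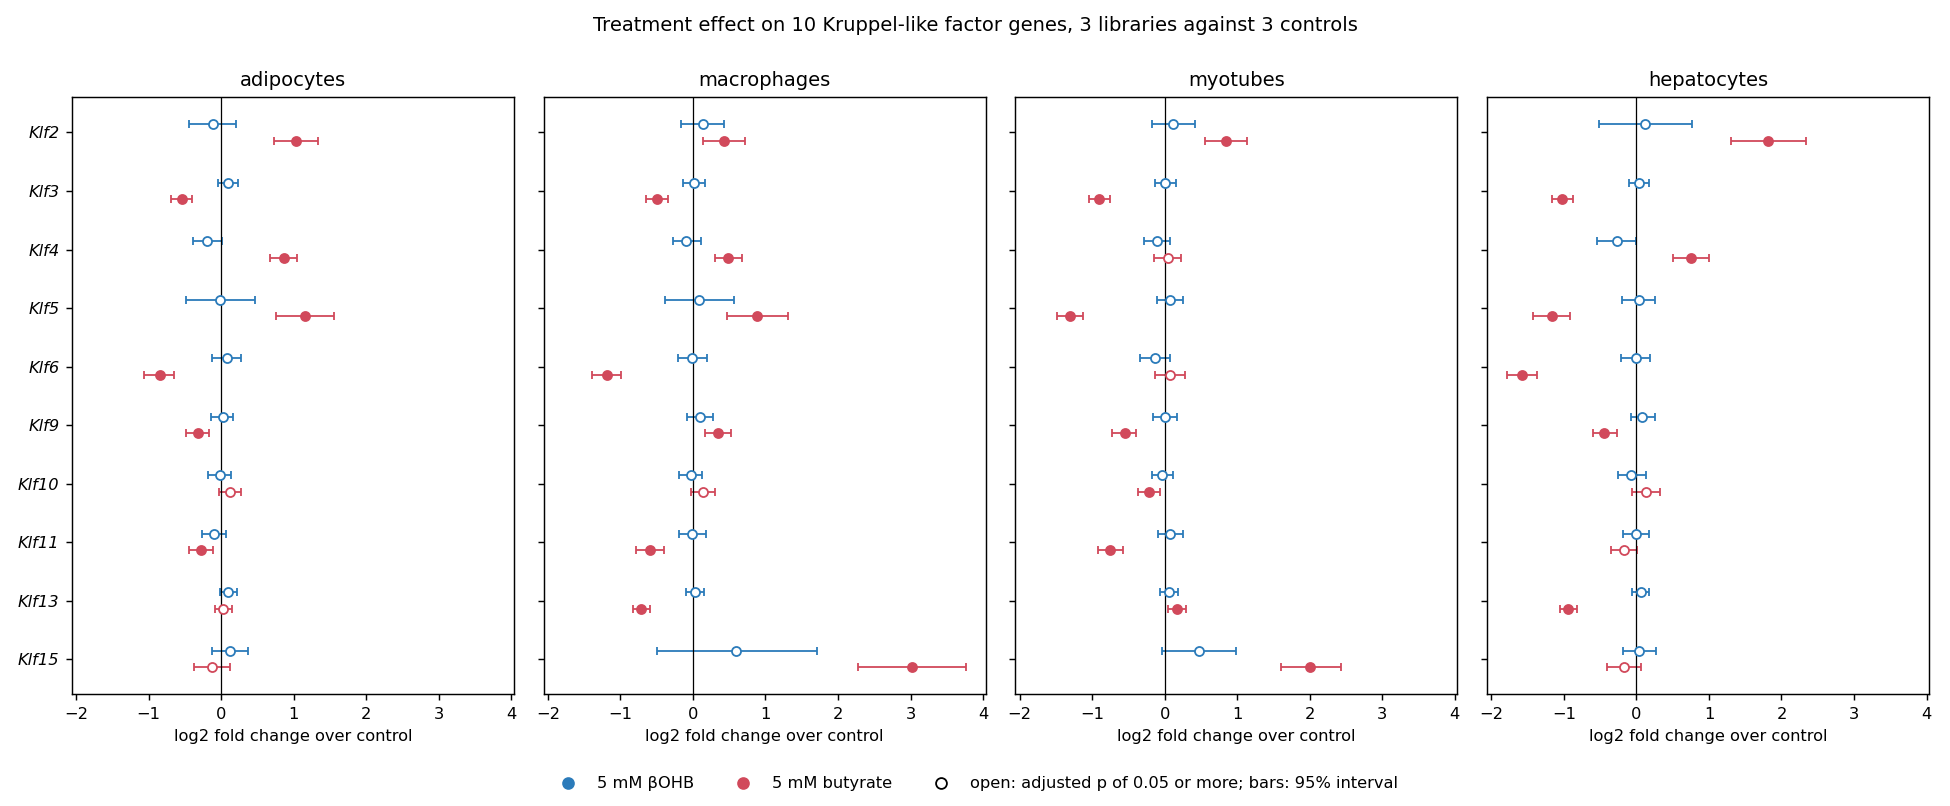
Log2 fold change over the PBS control of the same cell type for 5 mM βOHB and 5 mM butyrate, 3 libraries against 3, with 95% intervals and filled points for an adjusted p under 0.05. All 40 βOHB points are open, and butyrate points spread from -1.58 for Klf6 in hepatocytes to 3.02 for Klf15 in macrophages.

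Among the repressors, Klf3 (ENSMUSG00000029178, chr5:64803388-64832901), a CtBP-binding factor with roles in red cell and B cell development and in fat, was lowered in all 4 cell types, as were 12.7% of tested genes. Hepatocytes fell from 151, 160 and 169 CPM to 78.1, 80.6 and 78.8 CPM (log2 -1.02, SE 0.07). Myotubes fell from 91.6, 93.9 and 106 CPM to 48.5, 47.5 and 60.6 CPM (log2 -0.90, SE 0.07). Adipocytes went from 88.6, 104 and 100 CPM to 68.9, 68.8 and 63.4 CPM (log2 -0.54, SE 0.07). In macrophages the change was from 86.2, 84.5 and 83.1 CPM to 58.8, 63.2 and 57.5 CPM (log2 -0.50, SE 0.07, and -0.27 with library totals in place of TMM). No butyrate library reached a control of its cell type. Klf3 spans an antisense gene, Gm20033, with 1712 counts over the 36 libraries against 71748 for Klf3, and a short gene on its own strand, C230096K16Rik, with 274 counts, and the strand setting of the counting was not given in the sources used here.

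Klf9 (ENSMUSG00000033863, chr19:23141226-23168134), a Sin3A-binding factor that is induced by glucocorticoids and thyroid hormone, was lowered in 3 cell types and raised in macrophages. Adipocytes held the most, with 132, 131 and 128 CPM in controls and 106, 107 and 99.7 CPM with butyrate (log2 -0.32, SE 0.08). Myotubes fell from 63.9, 69.4 and 77.4 CPM to 49.0, 50.0 and 44.6 CPM (log2 -0.55, SE 0.08), and hepatocytes from 125, 113 and 99.0 CPM to 83.5, 90.3 and 75.2 CPM (log2 -0.44, SE 0.08). In macrophages 26.3, 23.5 and 25.2 CPM became 31.5, 31.9 and 32.3 CPM (log2 0.35, SE 0.09, adjusted p = 0.00124 in edgeR, and 0.57 with library totals in place of TMM). Controls and butyrate libraries did not overlap in any of the 4.

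Klf13 (ENSMUSG00000052040, chr7:63886351-63938915), a Sin3A-binding factor known for chemokine expression in T cells and for heart development, fell where its control level was high and not elsewhere. Hepatocytes went from 156, 179 and 176 CPM to 90.9, 86.8 and 88.6 CPM (log2 -0.94, SE 0.06, adjusted p = 2.62e-14 in edgeR). Macrophages went from 161, 158 and 156 CPM to 95.0, 98.9 and 97.4 CPM (log2 -0.71, SE 0.06). The other cell types began near the level at which these ended. Myotubes held 81.1, 79.5 and 80.9 CPM in controls and 90.2, 89.9 and 91.8 CPM with butyrate (log2 0.17, SE 0.06, adjusted p = 0.015 in edgeR, 0.31 with library totals in place of TMM, and 0.11 with adjusted p = 0.351 when low genes were not filtered). Adipocytes held 69.8, 74.6 and 82.0 CPM and 75.8, 76.6 and 79.3 CPM (log2 0.03, 95% interval -0.09 to 0.15, adjusted p = 0.669 in edgeR). The opposite-strand genes E030018B13Rik and Gm27252 within Klf13 had 76 and 174 counts over all libraries against 84394 for Klf13.

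Klf11 (ENSMUSG00000020653, chr12:24651274-24662789), a TGF-β-inducible Sin3A-binding factor known in pancreatic beta cells, fell in 3 cell types. Myotube controls spread from 17.2 over 20.0 to 23.5 CPM, and the butyrate libraries held 12.9, 11.8 and 11.5 CPM (log2 -0.75, SE 0.09). Macrophages fell from 12.3, 11.8 and 14.0 CPM to 8.43, 8.46 and 8.45 CPM (log2 -0.59, SE 0.10, and -0.37 with library totals in place of TMM). Adipocytes went from 22.3, 19.3 and 19.2 CPM to 16.5, 17.1 and 16.4 CPM (log2 -0.28, SE 0.09), a call that was lost without control replicate 1 (log2 -0.21, adjusted p = 0.0619). In hepatocytes 18.5, 19.9 and 18.2 CPM became 17.0, 17.2 and 15.9 CPM, which passed no threshold (log2 -0.17, 95% interval -0.35 to 0.01, adjusted p = 0.103 in edgeR).

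Klf10 (ENSMUSG00000037465, chr15:38291463-38300706), first described as an early TGF-β-inducible gene, moved least. Adipocytes held 56.3, 47.7 and 46.4 CPM in controls and 56.4, 51.3 and 56.3 CPM with butyrate. Macrophages held 39.1, 36.6 and 38.9 CPM and 41.6, 42.3 and 42.7 CPM, and hepatocytes 13.2, 15.9 and 15.8 CPM and 16.8, 15.6 and 16.7 CPM. The changes were 0.12 in adipocytes, 0.14 in macrophages and 0.13 in hepatocytes on the log2 scale, none of them called, with 95% intervals that together ran from -0.06 to 0.32. Myotubes gave the single call, from 56.4, 55.7 and 63.8 CPM to 50.5, 52.6 and 48.1 CPM (log2 -0.22, SE 0.08, adjusted p = 0.0159 in edgeR). It was lost without myotube control replicate 3 (log2 -0.15, adjusted p = 0.121), without butyrate replicate 3 (log2 -0.18, adjusted p = 0.0704) and with library totals in place of TMM (log2 -0.08). The macrophage butyrate libraries lay above all controls, and the change there was called in a fit of the macrophage libraries alone (log2 0.18, adjusted p = 0.00299) and with library totals in place of TMM (log2 0.37, adjusted p = 1.79e-04). In adipocytes the change passed the threshold without control replicate 1 (log2 0.22, adjusted p = 0.0254) and with library totals (log2 0.21, adjusted p = 0.0183).

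Klf15 (ENSMUSG00000030087, chr6:90462576-90475238), an activator of amino acid breakdown and gluconeogenic genes and a glucocorticoid target, rose in the cell types that had little of it. Macrophage controls held 3, 2 and 5 counts (0.127, 0.101 and 0.216 CPM) and butyrate libraries 31, 27 and 33 counts (1.35, 1.05 and 1.40 CPM), an 8.11-fold rise (log2 3.02, SE 0.38, 95% interval 2.28 to 3.76) that rests on few counts. Myotubes went from 0.504, 1.10 and 1.01 CPM to 3.86, 3.72 and 3.04 CPM (log2 2.01, SE 0.21, adjusted p = 1.39e-09 in edgeR). In adipocytes 10.3, 12.5 and 11.6 CPM stood against 10.1, 10.4 and 11.0 CPM with butyrate (log2 -0.13, 95% interval -0.38 to 0.12), and in hepatocytes 27.0, 23.8 and 22.6 CPM against 21.8, 21.9 and 21.5 CPM (log2 -0.17, 95% interval -0.40 to 0.06). These did not pass the test. Hepatocytes express Klf15, and hepatocyte markers were counted in the myotube butyrate libraries. At the ratio of Klf15 to hepatocyte markers in butyrate-treated hepatocytes, the marker sums correspond to 0.0157, 0.288 and 0.0664 CPM of Klf15 in butyrate replicates 1, 2 and 3, below the measured 3.86, 3.72 and 3.04 CPM. Without butyrate replicate 2 the change was 1.98. Whether that ratio holds for the hepatocyte RNA of the myotube libraries is not known, and its part in the rise of Klf15 was not tested.

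The same conversion gave at most 1.72 CPM of Klf6, 1.18 CPM of Klf13 and 0.110 CPM of Klf5 at the hepatocyte ratio in any myotube butyrate library. At the macrophage ratio it gave 2.38 to 6.13 CPM of Klf6 and 0.980 to 2.52 CPM of Klf13 in the myotube controls. The measured myotube levels were 73.6 CPM or more for Klf6 with butyrate and 79.5 CPM or more for Klf13 in controls. Proliferation markers (Mki67 and Top2a) summed to 27.5 to 59.8 CPM in myotube controls, 15.8 to 20.4 CPM with βOHB and 10.4 to 15.4 CPM with butyrate. In macrophages they summed to 1237 to 1272 CPM in controls, 1095 to 1293 CPM with βOHB and 477 to 568 CPM with butyrate. The part of these markers in the changes of the KLFs was not tested.

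The size of the butyrate effect differed between the 4 cell types for all 10 genes, by an F test of the 3 differences in the same edgeR fit, as it did for 74.5% of tested genes. The adjusted p was smallest for Klf13 (1.08e-12) and Klf5 (9.59e-12) and largest for Klf10 (0.012). For Klf10 it rested on myotube control replicate 3, without which it was 0.0726.

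In the controls, all 10 genes differed between cell types, as did 98.5% of tested genes. Between pairs of control groups, 77.5% of tested genes were called for adipocytes against macrophages, 78.2% for adipocytes against myotubes, 81.1% for adipocytes against hepatocytes, 82.2% for macrophages against myotubes, 82.1% for macrophages against hepatocytes and 86.6% for myotubes against hepatocytes. By the range of mean log2 CPM, which uses a prior count of 2, Klf5 was widest, at 7.15 between myotubes and the lowest group. Klf15 followed with 6.69 between hepatocytes and macrophages, a value that the prior count lowers because macrophage controls held 2 to 5 counts. In the edgeR fit Klf15 came first, at -7.29 (SE 0.24) for macrophages minus hepatocytes, beside -7.23 (SE 0.15) for Klf5 in macrophages minus myotubes. Klf5 stood highest in myotubes, then in hepatocytes (log2 difference 3.66, SE 0.11), and then in adipocytes and macrophages, which did not differ beyond their spread (0.03, SE 0.24). Klf15 ran from hepatocytes over adipocytes and myotubes to macrophages with every step called. Klf9 ran from adipocytes over hepatocytes and myotubes to macrophages, again with every step called. Klf2 was alike in macrophages and myotubes (difference 0.06, SE 0.15, adjusted p = 0.713 in edgeR), lower in adipocytes and lowest in hepatocytes. Klf4 was highest in myotubes, similar in adipocytes and macrophages (0.03, SE 0.10, adjusted p = 0.817 in edgeR) and lowest in hepatocytes.

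Klf6 and Klf13 shared an upper pair of hepatocytes and macrophages, whose difference was 0.01 (SE 0.10) for Klf6 and 0.10 (SE 0.06) for Klf13, neither called. Below this pair Klf6 went to adipocytes and then myotubes with both steps called, and for Klf13 myotubes and adipocytes were not distinguished (0.09, SE 0.06). Klf3 was highest in hepatocytes, not distinguished between adipocytes and myotubes (0.01, SE 0.07) and lowest in macrophages. Klf10 was highest in myotubes and lowest in hepatocytes with every step called, although the myotube and adipocyte libraries overlapped. Klf11 was not distinguished among adipocytes, myotubes and hepatocytes and was lowest in macrophages. With library totals in place of TMM the order changed for 4 of the 10 genes, Klf3, Klf6, Klf11 and Klf13.

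Between genes, levels were compared per kilobase of merged exons. Klf6 was highest at 43.3 CPM per kilobase in adipocyte, 87.7 in macrophage and 88.2 in hepatocyte controls. In myotubes Klf5 led at 45.4 CPM per kilobase, ahead of Klf6 at 18.7. Those leading genes were also highest per kilobase of the longest transcript, whereas Klf3, whose merged exons span 11243 bases and whose longest transcript has 5221, reached rank 2 or 3 in adipocytes, macrophages and hepatocytes on that scale and lay below rank 3 on the other.

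**Figure D3:**
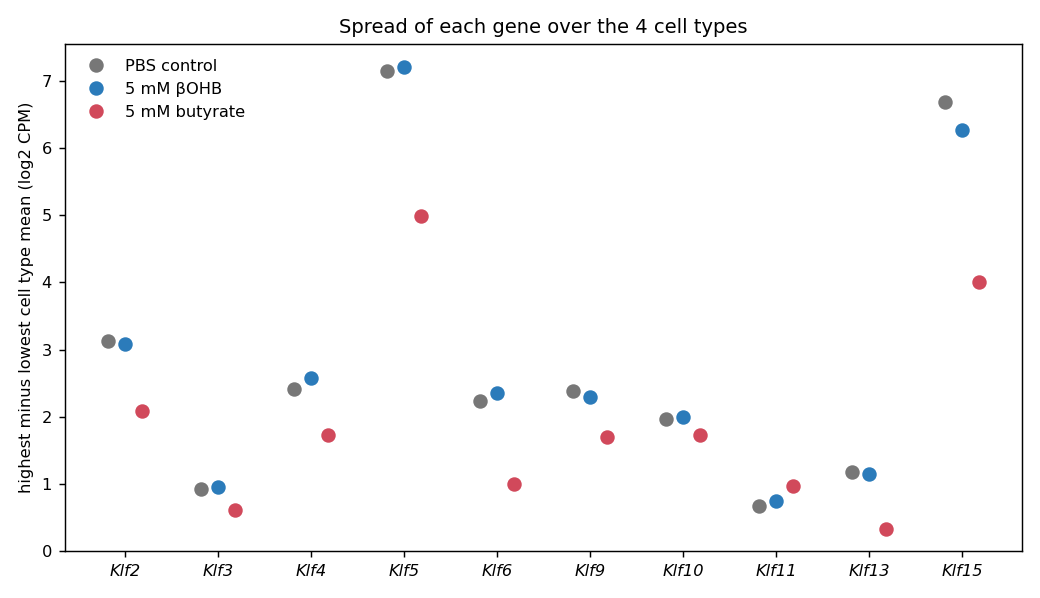
Highest minus lowest of the 4 cell type means of log2 CPM for each Kruppel-like factor gene, by treatment. The butyrate point lies below the control point for 9 of 10 genes, with Klf11 as the exception at 0.97 against 0.67.

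The range of the cell type means was smaller with butyrate than in controls for 9 of the 10 genes, where 64.8% of tested genes had a smaller range, so a smaller range was common in the whole table. It went from 6.69 to 4.01 log2 units for Klf15, from 7.15 to 4.99 for Klf5, from 2.24 to 0.99 for Klf6 and from 1.17 to 0.33 for Klf13. Klf11 was the exception, with 0.67 in controls and 0.97 with butyrate. The butyrate range was also smaller than that under βOHB for 9 of the 10 (66.5% of tested genes). Under βOHB the range was smaller than in controls for 4 of the 10 genes (44.9% of tested genes). The count of 9 was the same with library totals in place of TMM and without myotube butyrate replicate 2.

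At the same dose and time βOHB gave no called change of any KLF. Of the 40 effects, 10 genes in 4 cell types, 0 had an adjusted p under 0.05 and 0 an unadjusted p under 0.05 in edgeR, and none was called by limma-voom, DESeq2 or any other alternative. At an unadjusted p under 0.05, limma-voom gave 1 KLF in adipocytes and DESeq2 gave 1 in hepatocytes, and other alternatives gave 0 to 2 in a cell type. Over all tested genes edgeR called 1 in adipocytes, 0 in macrophages, 446 in myotubes and 1 in hepatocytes, with 1097, 358, 2104 and 845 genes at an unadjusted p under 0.05. The βOHB libraries held 182, 204 and 217 CPM of Klf6 in adipocytes, 393, 381 and 376 CPM in macrophages, 68.8, 79.1 and 75.6 CPM in myotubes and 385, 320 and 448 CPM in hepatocytes, which overlapped the controls in each. Klf3 held 99.0, 103 and 111 CPM with βOHB in adipocytes and 174, 158 and 163 CPM in hepatocytes, and these ranges also overlapped the controls. In 4 of the 40 pairs the βOHB libraries lay wholly apart from the controls, Klf4 in adipocytes (where 12.7% of tested genes lay apart), Klf15 in macrophages (11.1%) and Klf13 and Klf15 in myotubes (22.9%), with 0 in hepatocytes (6.71%). Klf4 in adipocytes held 18.8, 17.5 and 17.3 CPM with βOHB, below the controls at 21.8, 19.5 and 19.9 CPM. Klf13 in myotubes held 84.0, 83.1 and 84.8 CPM, above the controls at 81.1, 79.5 and 80.9 CPM (log2 0.06, 95% interval -0.06 to 0.18, adjusted p = 0.719 in edgeR). For 35 of the 40 effects the 95% interval lay within 0.5 log2 units of 0. The widest belonged to Klf15 in macrophages (log2 0.60, 95% interval -0.50 to 1.71), where both groups held 2 to 5 counts per library. In myotubes Klf15 held 1.33, 1.24 and 1.11 CPM with βOHB, all above the controls at 0.504, 1.10 and 1.01 CPM, and the change did not pass the test (log2 0.48, 95% interval -0.03 to 0.99, adjusted p = 0.425 in edgeR). Klf4 was lower in its mean in all 4 cell types, with -0.19 in adipocytes (adjusted p = 0.722 in edgeR) and -0.27 in hepatocytes (adjusted p = 0.935 in edgeR) as its largest values, none of them called. The βOHB effect did not differ between cell types for any of the 10 genes by the F test, which called 0.978% of tested genes and 0 KLFs.

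Butyrate and βOHB, which differ by the hydroxyl group, were also compared directly for the 40 pairs of values, with adjustment over all tested genes. The compounds differed in 28 of 40. In adipocytes the difference was called for 6 KLFs (background 59.5%), in macrophages for 8 (64.7%), in myotubes for 7 (66.0%) and in hepatocytes for 7 (63.5%). The largest differences, as butyrate minus βOHB in log2, were 2.42 (SE 0.35) for Klf15 in macrophages, 1.70 (SE 0.25) for Klf2 in hepatocytes and -1.57 (SE 0.10) for Klf6 in hepatocytes. Klf3, Klf5 and Klf9 differed between the compounds in all 4 cell types, which makes 3 of the 10 KLFs where 29.4% of tested genes did so. In the other 12 pairs the intervals of the difference together ran from -0.50 to 0.59. Klf2 in macrophages was one of these, with 8.95, 10.2 and 10.3 CPM under βOHB and 9.95, 13.3 and 12.8 CPM under butyrate (difference 0.30, 95% interval 0.01 to 0.59, adjusted p = 0.0808 in edgeR), and it was called with library totals in place of TMM (0.52, adjusted p = 0.00305), in a fit of the macrophage libraries alone (0.33, adjusted p = 0.0123) and without butyrate replicate 1 (0.44, adjusted p = 0.0167). Klf11 in adipocytes was another (-0.18, adjusted p = 0.0869 in edgeR), called without βOHB replicate 3 (-0.27).

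The gene lists that follow are to be read against all tested genes, of which butyrate raised 30.7% and lowered 30.3% in adipocytes, raised 31.9% and lowered 33.2% in macrophages, raised 33.1% and lowered 33.4% in myotubes, and raised 31.0% and lowered 32.4% in hepatocytes. Of 7 other KLF genes, 4 passed the filter. Klf12, a CtBP-binding repressor like Klf3, was raised by butyrate in all 4 cell types, from 0.385 to 3.33 CPM in adipocytes (log2 3.09, SE 0.25), from 0.910 to 3.14 in macrophages (1.77, SE 0.21), from 2.63 to 8.77 in myotubes (1.73, SE 0.15) and from 30.8 to 41.6 in hepatocytes (0.43, SE 0.11), as means of 3 libraries. With βOHB its means were 0.743 CPM in adipocytes (0.94, SE 0.35), 1.36 in macrophages (0.56, SE 0.26), 2.47 in myotubes (-0.09, SE 0.18) and 40.2 in hepatocytes (0.38, SE 0.11), none called (adjusted p = 0.6 to 1 in edgeR), though the unadjusted p was 0.0115 in adipocytes, 0.0358 in macrophages and 0.00179 in hepatocytes. In hepatocytes the βOHB value thus lay near the butyrate value, and none of the 4 tested genes was called higher with butyrate than with βOHB there. Klf3 and Klf12 went in opposite directions under butyrate in all 4 cell types. Klf7 was raised in myotubes (0.74) and lowered in adipocytes (-0.30) and hepatocytes (-0.45). Klf16 was lowered in adipocytes (-0.21) and raised in the others by 0.18 to 0.46. Klf8 was at 0 in the hepatocyte controls and was called raised there at a mean of 0.110 CPM with butyrate, and it was not called in the other cell types. Klf1, Klf14 and Klf17 did not pass the filter.

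The Sp factors bind the same GC boxes. Of 9 listed, 6 were tested, and butyrate raised 2 and lowered 3 in adipocytes, raised 2 and lowered 4 in macrophages, raised 2 and lowered 2 in myotubes, and raised 3 and lowered 2 in hepatocytes. Sp1 and Sp2 were lowered in all 4 cell types, Sp2 by log2 values of -1.34 in adipocytes, -1.32 in macrophages, -0.91 in myotubes and -1.22 in hepatocytes (SE 0.08 to 0.09). Sp4 was raised in all 4, from 0.26 in adipocytes to 1.56 in hepatocytes. Sp3 was lowered in macrophages (-0.54) and raised in hepatocytes (0.27).

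Among 7 genes for KLF partner proteins, butyrate lowered 6 in adipocytes, 6 in macrophages, 5 in myotubes and 5 in hepatocytes and raised 1 in each, with medians of -0.81, -0.92, -0.46 and -1.24 on the log2 scale against all-gene medians of 0.00 to -0.01. The acetyltransferase genes Ep300, Crebbp and Kat2b and the corepressor genes Ctbp1 and Ctbp2 were lowered in every cell type. Ep300, which encodes p300, fell from 93.6 to 39.3 CPM in hepatocytes (log2 -1.25, SE 0.09) and from 228 to 89.3 CPM in macrophages (-1.35, SE 0.09). Ctbp1 fell from 126 to 24.9 CPM in hepatocytes (-2.34, SE 0.06). Sin3a, the scaffold of the Sin3 complex, was the gene raised in all 4, by 0.17 in macrophages to 0.70 in myotubes.

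**Figure D4:**
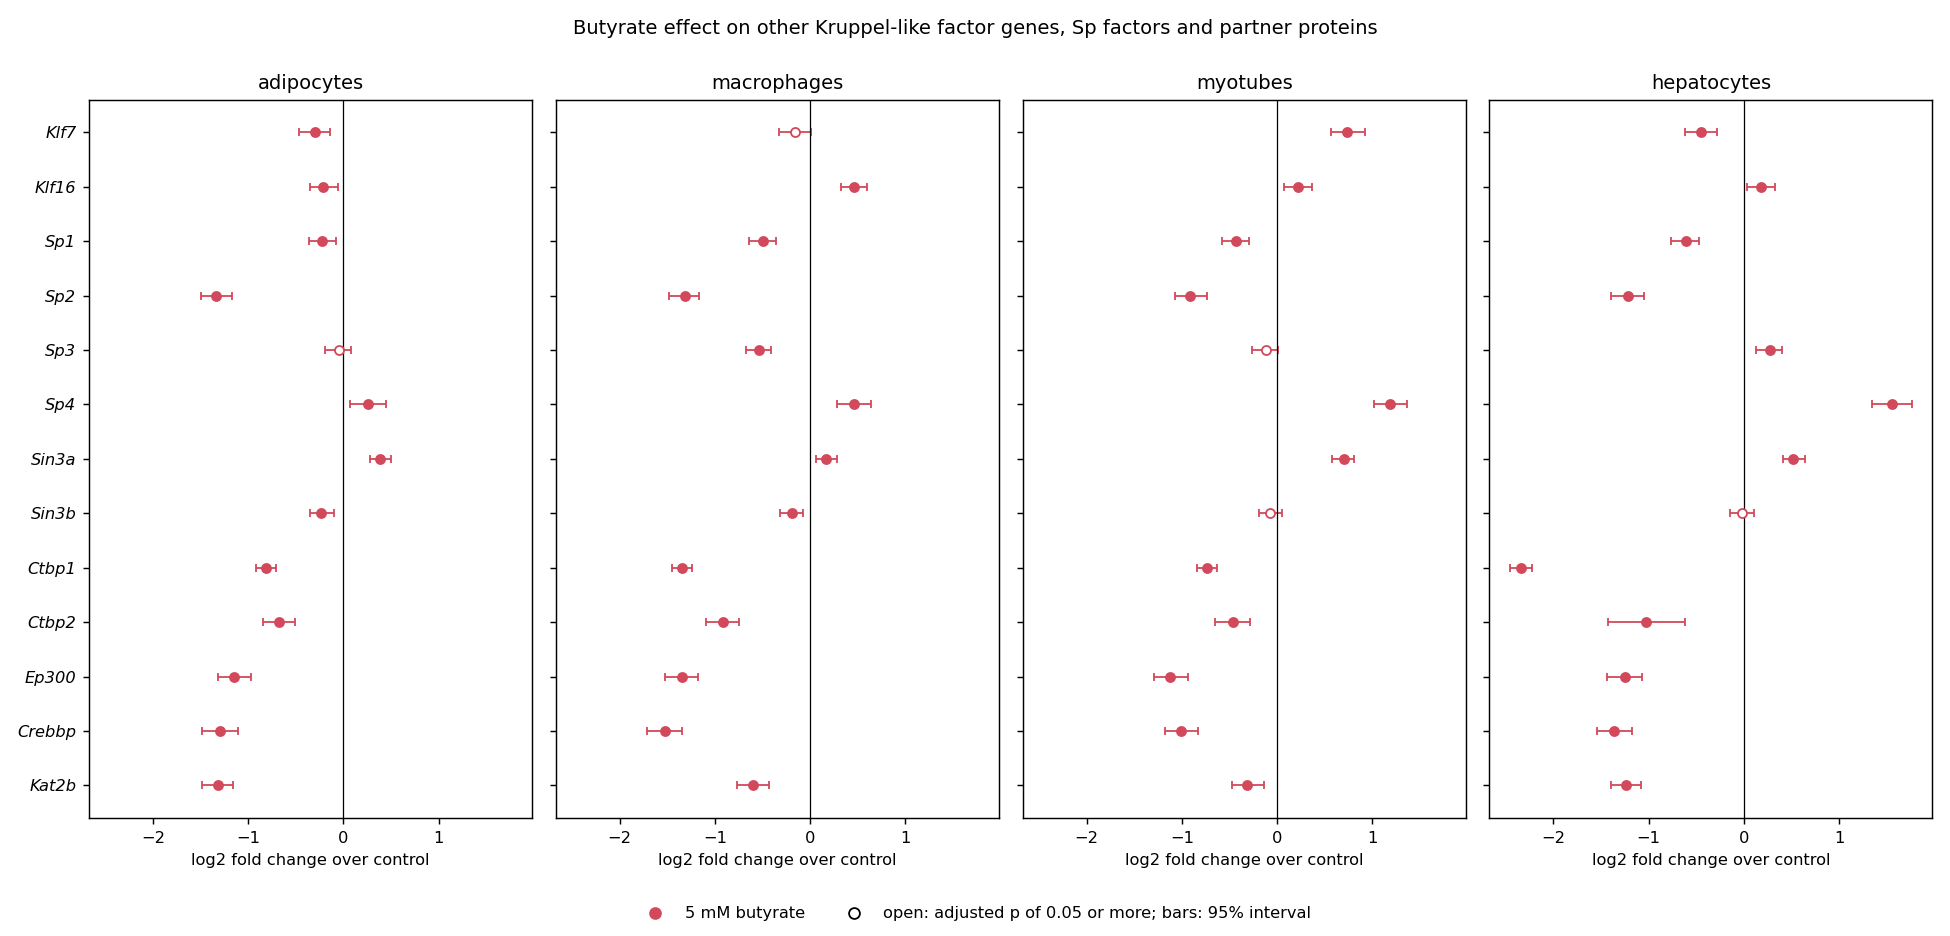
Log2 fold change under 5 mM butyrate for the other Kruppel-like factor genes, Sp factors and partner proteins that had a mean of at least 1 CPM in the controls of every cell type (13 genes), with 95% intervals and filled points for an adjusted p under 0.05. Sin3a and Sp4 lie right of 0 in all 4 panels, and Sp1, Sp2, Ctbp1, Ctbp2, Ep300, Crebbp and Kat2b lie left of it.

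The ERK5 and MEF2 route is known to switch on Klf2 and Klf4. Butyrate lowered 3 of its 6 genes in adipocytes, 5 in macrophages, 5 in myotubes and 4 in hepatocytes and raised 1 in each. Map2k5, which encodes the ERK5 activator MEK5, was lowered in all 4 by -0.81 to -1.29, and Mapk7, the ERK5 gene, by -0.24 to -0.95. Mef2d was lowered in all 4 by -0.48 to -1.21. Any link of these changes to Klf2 and Klf4 was not tested. Of 6 genes known as targets of KLF2 and KLF4, 5 were tested. Butyrate lowered 3 and raised 0 in adipocytes, lowered 2 and raised 0 in macrophages and in hepatocytes, and lowered 1 and raised 1 in myotubes. Thbd, for thrombomodulin, was raised in myotubes (0.99, SE 0.27) and lowered in adipocytes (-0.96, SE 0.30), while S1pr1 fell in adipocytes (-1.36, SE 0.10) and macrophages (-2.01, SE 0.09). Thbd, S1pr1 and Nos3 are also expressed by endothelial cells, and the endothelial markers were lower with butyrate in adipocytes (117 to 134 against 176 to 202 CPM, 2 of 4 lowered) and in hepatocytes (19.7 to 23.3 against 64.6 to 72.1 CPM, 4 of 4 lowered), where Nos3 was lowered (-1.82, SE 0.36). Mrc1, a macrophage receptor gene, was lowered by butyrate in macrophages (-0.28, SE 0.12), hepatocytes (-1.67, SE 0.30) and myotubes (-0.84, SE 0.21) and by βOHB in myotubes (-0.92, SE 0.21, adjusted p = 0.00961 in edgeR). In the myotubes the macrophage markers were also lower, from 105 to 271 CPM in controls to 42.2 to 104 CPM with βOHB and 15.5 to 68.5 CPM with butyrate. The part of these markers in the changes of the list was not tested.

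The TGF-β route, which induces Klf10 and Klf11, had 4 of its 7 genes lowered in adipocytes, 6 in macrophages, 4 in myotubes and 5 in hepatocytes, and at most 1 raised. Tgfb1, the ligand, was lowered by -0.29 to -0.51, and Tgfbr2, a receptor, by -0.38 to -0.87 over the 4 cell types. Smad3, a signal transducer, was raised in macrophages (1.09, SE 0.09) and lowered in myotubes (-0.37) and hepatocytes (-0.88).

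Klf9 and Klf15 are glucocorticoid targets, and 8 genes of that route were listed. In adipocytes 6 were raised and 0 lowered, in macrophages 3 and 3, in myotubes 4 and 1, and in hepatocytes 3 and 3. Fkbp5, a sensitive glucocorticoid target, was raised in adipocytes (1.41, SE 0.07), macrophages (1.39, SE 0.07) and myotubes (0.90, SE 0.07), where Klf9 was lowered, raised and lowered. Nr3c1, the receptor gene, was not called in adipocytes (-0.03), was lowered in macrophages (-0.43) and was raised in myotubes (0.43) and hepatocytes (0.57).

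KLF15 is linked to 7 metabolic genes of the list, of which butyrate raised 2 and lowered 1 in adipocytes, raised 2 and lowered 0 in macrophages, raised 5 and lowered 0 in myotubes, and raised 3 and lowered 3 in hepatocytes. In the myotubes, 3 of the 5 raised genes are expressed in liver and held few reads, namely Tat at 0.203, 4.37 and 0.447 CPM, Aass at 0.651, 1.50 and 0.895 CPM and Pck1 at 0.0814, 1.09 and 0.224 CPM in butyrate replicates 1, 2 and 3. At the hepatocyte ratio, the hepatocyte markers correspond to 0.280, 5.14 and 1.19 CPM of Tat, 0.0991, 1.82 and 0.421 CPM of Aass and 0.0238, 0.438 and 0.101 CPM of Pck1, which is above the measured Tat in all 3 replicates and above the measured Aass in replicate 2. Prodh, for proline breakdown, held 5.21, 6.07 and 5.01 CPM there against 0.0340, 0.626 and 0.144 CPM at that ratio, and Gpt2 80.5, 86.6 and 68.7 CPM against 0.263, 4.84 and 1.12. In macrophages Klf15 had its largest fold rise, from a mean of 0.148 to 1.27 CPM, beside 0.872 to 3.54 CPM in myotubes. The 2 genes raised there were Gpt (1.07, SE 0.17) and Gpt2 (0.89, SE 0.09). Listed genes were also raised in adipocytes and hepatocytes, where Klf15 was not called. Any link of these changes to Klf15 was not tested.

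Of 6 adipogenic genes, Cebpd was lowered in all 4 cell types, by -1.56 in myotubes to -2.24 in macrophages, and Pparg in adipocytes (-0.95, SE 0.07), macrophages (-0.69) and hepatocytes (-0.95). Of the 6, 1 was raised and 3 were lowered in adipocytes and in macrophages, 2 and 2 in myotubes, and 2 and 3 in hepatocytes. Klf5, which acts beside C/EBPδ in early fat cell differentiation, rose in the adipocytes while Cebpd fell from 24.9 to 6.31 CPM.

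Genes most like each member were taken by Pearson's r over the 12 group means of log2 CPM, as a description, since cell type sets most of this spread. Klf5 was most like Palld (r = 0.997) and Neurl1a (0.993), Klf10 like Hoxa7 (0.997) and Tspan6 (0.994), and Klf2 like Hk1 (0.991) and Fancm (0.989). Klf9 was closest to Prdx3 (0.990) and Aox1 (0.985), Klf15 to Mlxipl (0.986), Klf3 to Ppil3 (0.985) and Kat8 (0.984), and Klf6 to Gnb2 (0.979) and Srd5a3 (0.972). For Klf4 these were Garem2 (0.978) and Fam171b (0.977), for Klf13 Slc3a2 (0.960), and for Klf11 Mrpl9 (0.959) and Nolc1 (0.951).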

How the data were processed

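RNA of 36 libraries of primary mouse cells was sequenced on BGISEQ-500 with paired-end reads of 150 bases. Estimated counts per gene were made by the authors with Salmon 1.2.1 on GENCODE M25 (GRCm38.p6) transcripts and deposited as 1 table, not scaled to library size. Library totals ran from 18366289 to 23221473 counts, and 0 columns were left out. Groups and replicate numbers came from the labels, which do not say that replicates were separate cultures, so p-values measure the spread between these libraries, which may be technical.

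After rounding, the estimated counts entered edgeR 4.0.16 (R 4.3.3) with TMM factors of 0.823 to 1.20, and 12 group means were fitted over all 36 libraries for quasi-likelihood F tests. Genes above 1 CPM in at least 6 libraries entered, and p-values were adjusted by the Benjamini-Hochberg method over 15340 genes at a threshold of 0.05. Log2 CPM used a prior count of 2. Exact permutation of 3 against 3 libraries reaches no p under 0.1 and was not used. Intervals are 95% intervals from the fitted SE. Symbols, positions and exon lengths came from GENCODE M21, in which 54094 of 54347 genes were found, and promoters from a RefSeq table on GRCm38.p6.

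The text names every member in all 12 groups, list genes called in the most comparisons or with the largest change, and the 2 genes most like each member, of which some are not reported here. The members, the gene lists and the tests were chosen with earlier results of these data known. Alternatives were limma-voom (limma 3.58.1), DESeq2 1.42.0, a fit per cell type, a block for the replicate number, RLE factors, library totals without TMM, filterByExpr, no filter, and fits that leave out each library. The recomputed ranges over cell types were added after seeing the data. The tests were checked on simulated data. No replicate pair of the 36 looked like 1 library deposited more than once, with a chi-square per gene of 2.680 or more.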

Additional observations from a re-analysis of the deposited data

Results flagged for a closer look

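The butyrate effect differed between the 4 cell types for each of the 10 genes, which an F test of the differences in the edgeR fit found at an adjusted p under 0.05. For Klf5 (adjusted p = 9.59e-12 in edgeR), Klf13 (1.08e-12) and Klf9 (9.44e-07) the called changes had opposite signs in different cell types, although the raised call of Klf13 in myotubes (0.17) was lost with no filter on low counts (0.11, adjusted p = 0.351). Klf15 (3.25e-10) was called in macrophages and myotubes and was near its control level in adipocytes and hepatocytes, and Klf6 (3.91e-10) and Klf4 (1.88e-05) were called in all cell types but myotubes. Klf2 (0.00146) and Klf3 (6.28e-05) kept their direction and differed in size. Klf11 (5.44e-04) was lowered in 3 cell types, and Klf10 (0.012) was called in myotubes, where control replicate 3 decided the difference (0.0726 without it). Such differences were found for 74.5% of all tested genes.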

How the results depend on the processing

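Counts of called members moved little. Under the alternatives other than leaving out a library, they stayed at 7 to 8 of 10 for butyrate in adipocytes, 9 to 10 in macrophages, 7 to 8 in myotubes and 7 in hepatocytes, and at 0 for βOHB in each. Leaving out 1 library gave 7, 8 to 9, 7 to 8 and 7 for butyrate and 0 for βOHB. The butyrate values that changed sign were not called: Klf13 in adipocytes was -0.01 with no filter on low counts and -0.02 without control replicate 1, Klf4 in myotubes -0.03 with no filter and -0.07 without butyrate replicate 3 (-0.07 to 0.09 over the libraries left out), and Klf6 in myotubes -0.12 without butyrate replicate 3 (-0.12 to 0.18). The cause was not tested.

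With library totals in place of TMM the all-gene median under butyrate shifted to 0.07 in adipocytes, 0.20 in macrophages, 0.13 in myotubes and 0.01 in hepatocytes. The share of calls that were raised then went from 50.4% to 58.8% in adipocytes, from 49.0% to 66.7% in macrophages and from 49.8% to 61.8% in myotubes (48.9% to 53.7% in hepatocytes), and the members went from 3 raised and 4 lowered to 4 and 4 in adipocytes, from 5 and 4 to 6 and 4 in macrophages and from 3 and 5 to 3 and 4 in myotubes. Klf10 in macrophages was then called at 0.37.

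Same-numbered libraries of different treatments had correlations of their deviations from the group mean of -0.264 to 0.273 over 36 pairs, above 0.1 in 4. Differently numbered libraries gave -0.381 to 0.355 over 72 pairs, and the medians were 0.00602 and -0.00719. In adipocytes, control and βOHB libraries of the same number gave 0.225, -0.107 and 0.167. With 3 libraries per group these values cannot decide whether the numbers pair the libraries, and the labels do not say. With the replicate number as a block, 7, 9, 8 and 7 members were called under butyrate and 0 under βOHB, 10 differed in butyrate effect between cell types, and 6, 10, 7 and 7 differed between the compounds, against 8 in macrophages without the block (Klf2 among those gained, at 0.29 with adjusted p = 0.0395). Depth limits Klf15 in macrophages, where controls held 2 to 5 counts.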
